A study of Mus musculus with 12 samples.

Results

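Malat1 and Neat1, both long RNAs that stay in the nucleus, and 7 long non-coding RNAs whose introns carry small nucleolar RNAs (snoRNAs), *Gas5*, *Snhg1*, *Snhg3*, *Snhg5*, *Snhg6*, *Snhg8* and *Snhg12*, were followed in colonic epithelial cells. They were found by gene symbol, and all 9 were present among the 47632 genes of each of 3 expression tables. The cells came from the colons of C57/BL6 *Tfeb* flox/flox animals, whose *Tfeb* alleles carry loxP sites and which served as controls, and of *Tfeb* ΔIEC animals (labelled *Tfeb* dIEC in the plots). In the latter, which carry the same alleles, Cre recombinase driven by the villin promoter deletes *Tfeb*, a transcription factor of lysosome and autophagy genes, in intestinal epithelial cells. Cells were released with EDTA on Day 0, before dextran sulfate sodium (DSS, a chemical that injures the colonic epithelium, 2.5% in the labels and a lower concentration in the methods), on Day 4 of DSS, and on Day 11, after recovery on water. Each genotype had 2 animals per day and 12 animals were used in all, aged 10 and 12 weeks on Day 0, 12 weeks on Day 4 and 10 weeks on Day 11, so that age differed between the later days.

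*Malat1* is among the most abundant nuclear RNAs of mammalian cells and gathers in nuclear speckles, bodies rich in splicing factors. *Neat1* is the scaffold of paraspeckles, other nuclear bodies, and its locus lies close to that of *Malat1*. In snoRNA host genes the functional product is often the intron: snoRNAs cut from it guide the chemical modification of ribosomal RNA, while the spliced host RNA of *Gas5* and several *Snhg* genes is exported, bound by ribosomes and degraded by nonsense-mediated decay. The *Gas5* RNA belongs, like the mRNAs of ribosomal proteins, to the RNAs whose 5′ end is a run of pyrimidines.

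Levels are FPKM values (fragments relative to transcript length in kilobases and to sequencing depth), 1 for each gene in each genotype and day, which the authors' Cuffdiff run made from both animals. There is therefore no replicate check: no value carries an error, no difference was tested, and the number of reads behind a value is unknown. Differences between genotypes are given on the log2(FPKM + 1) scale as *Tfeb* ΔIEC minus *Tfeb* flox/flox, which understates those of low genes, fold ratios are of the FPKM values themselves, and a difference of at least 2-fold on that scale is called past 2-fold. The genotypes of 1 day were scaled together and the days separately, so levels of different days stand side by side only. *Tfeb* itself had 0.901 FPKM in flox/flox and 0.185 in ΔIEC animals on Day 0, and on Days 4 and 11 it had 1.08 and 1.18 in flox/flox and was listed at 0 in ΔIEC animals. The tables of Days 4 and 11 were not independent in their values. Of the genes above 0 on both days, 1679 of 11746 (14.3%) in flox/flox and 1310 of 12826 (10.2%) in ΔIEC animals had exactly the same FPKM, against 0 between Days 0 and 4. Among the members, *Snhg1* in flox/flox animals (1.84 FPKM) and *Snhg3* in ΔIEC animals (1.88 FPKM) were identical on both days, and *Snhg3* was listed at 0 on both in flox/flox animals. Day 11 is therefore given as a second table and not as a repeat of Day 4.

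All 12 epithelial markers had at least 1 FPKM in every group, and their summed FPKM lay between 31999 and 40325. Of these 12, 6 were higher past 2-fold in ΔIEC animals on both DSS days, where 25.6% and 26.1% of all genes were, among them *Krt20*, with 101 FPKM in flox/flox and 931 in ΔIEC animals on Day 4. The 10 immune markers summed to between 1.04 and 7.60 FPKM and the 8 stromal and vascular markers to between 2.50 and 5.28, with *Cd68*, *S100a9*, *Col1a2* and *Des* listed at 0 in all 6 groups. The immune sum on Day 4 was 3.88 in flox/flox and 7.29 in ΔIEC animals. The sums of the tables, and what took them up, were close between genotypes on Day 0 and further apart on Days 4 and 11. The FPKM values summed to 975316 in flox/flox and 973878 in ΔIEC animals on Day 0, but to 1464720 and 820344 on Day 4. Genes with transcripts under 900 nt took 47.6% and 47.4% of the sum on Day 0, 66.8% and 45.8% on Day 4, and 69.0% and 47.6% on Day 11. Mitochondrially encoded genes took 27.6% and 29.4%, then 10.7% and 20.3%, and then 8.64% and 18.6%. Most members have short transcripts, and the part of these shifts in the members' differences was not tested beyond the length comparison given further on.

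*Malat1* (ENSMUSG00000092341, chr19:5795690-5802672 of mm10, minus strand, annotated lincRNA) was by far the most abundant member in every group. Its FPKM was 3440 in flox/flox and 2018 in ΔIEC animals on Day 0, 4375 and 618 on Day 4, and 3471 and 510 on Day 11. The flox/flox value was the higher one on each day. Its log2 difference on Day 0 was -0.77. On Day 4 it was -2.82 (7.08-fold lower in ΔIEC animals) and on Day 11 -2.76 (6.80-fold lower). After each group was divided by its summed FPKM, the differences of these 2 days were -1.99 and -1.93. In bulk cells, fewer cells with a high level and less RNA per cell cannot be told apart. By rank, which does not depend on scaling, *Malat1* stood 40th among 13019 genes above 0 in flox/flox and 41st among 13187 in ΔIEC animals on Day 0. On Day 4 it stood 57th of 11774 and 134th of 12849, and on Day 11 68th of 11768 and 154th of 12860. Thus its rank was nearly the same in both genotypes before DSS and lower in ΔIEC animals on both later days. Only 4.06% of all genes of at least 1 FPKM had a lower difference than *Malat1* on Day 4.

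*Neat1* (ENSMUSG00000092274, chr19:5824708-5845478, minus strand) had levels like those of the *Snhg* genes, although it too is a nuclear RNA. Its FPKM was 7.03 in flox/flox and 7.69 in ΔIEC animals on Day 0, 1.69 and 2.67 on Day 4, and 1.60 and 2.43 on Day 11. The ΔIEC value was slightly above the flox/flox value on each day. The log2 differences of 0.11, 0.45 and 0.40 were all within 2-fold, but on Day 4 the difference was 1.03, past 2-fold, after each group was divided by its summed FPKM. *Neat1* stood between rank 3181 and rank 3314 on Day 0 and between rank 5254 and rank 6338 later. *Malat1* exceeded it by 489-fold in flox/flox and 262-fold in ΔIEC animals on Day 0, and by 2595-fold and 232-fold on Day 4. FPKM depends on the transcripts assumed: the annotated basic transcripts of *Malat1* range from 485 to 6983 nt and those of *Neat1* from 711 to 20771 nt.

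**Figure D1:**
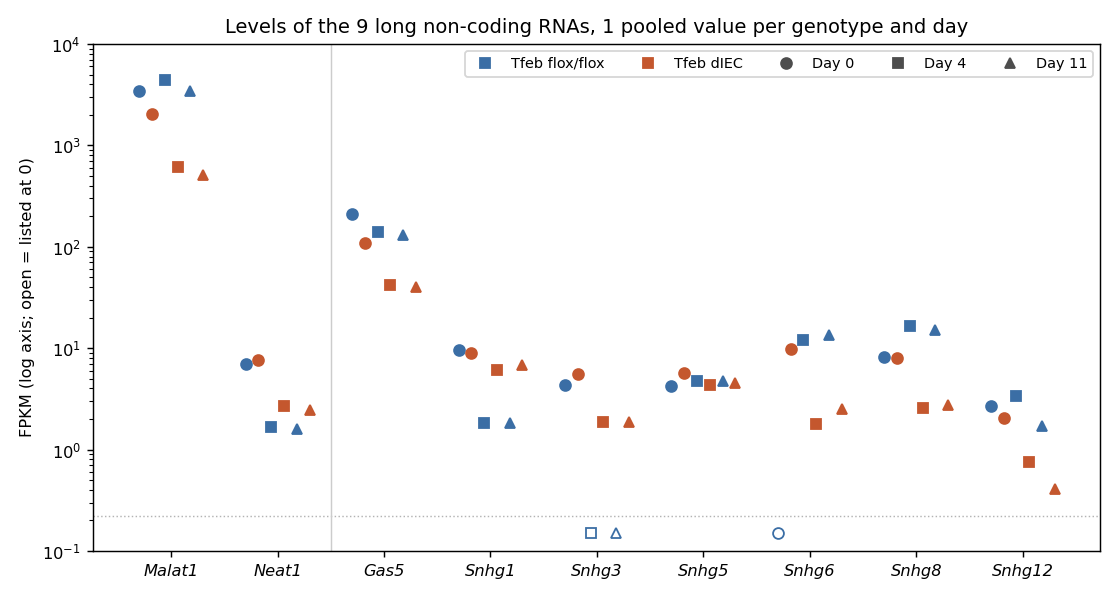
FPKM (vertical log axis) of the 9 RNAs (horizontal axis) in *Tfeb* flox/flox (blue) and *Tfeb* ΔIEC (orange) animals on Day 0 (circles), Day 4 (squares) and Day 11 (triangles), each point 1 pooled value without error; open symbols under the dotted line are listed at 0. *Malat1* lies between 510 and 4375 FPKM, *Gas5* between 40.0 and 211, and the other 7 RNAs at or below 16.7.

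Of the snoRNA hosts, *Gas5* (ENSMUSG00000053332, chr1:161034422-161038539, plus strand) had the highest level throughout, and the 6 *Snhg* genes lay under 17 FPKM. *Gas5* made up between 67.9% and 87.9% of the summed FPKM of the 7 hosts. Its FPKM was 211 in flox/flox and 108 in ΔIEC animals on Day 0, 139 and 41.8 on Day 4, and 129 and 40.0 on Day 11. The ΔIEC value was the lower one on each day. The log2 difference was -0.96 on Day 0, just within 2-fold, -1.71 on Day 4 (3.32-fold lower) and -1.67 on Day 11.

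*Snhg8* (ENSMUSG00000104960, chr3:123507552-123508404, minus strand) had nearly equal levels in both genotypes before DSS and levels far apart afterwards. It had 8.10 FPKM in flox/flox and 8.03 in ΔIEC animals on Day 0, 16.7 and 2.59 on Day 4, and 15.1 and 2.73 on Day 11. The Day 4 ratio was 6.46-fold (log2 difference -2.30). *Snhg12* (ENSMUSG00000086290, chr4:132308623-132311024, plus strand) was the lowest host on average, with 2.70 and 2.06 FPKM on Day 0, 3.40 and 0.753 on Day 4 and 1.70 and 0.410 on Day 11. On the log2 scale it differed by -0.27, -1.33 and -0.94 in day order, so that it was past 2-fold on Day 4 and just within it on Day 11, while the ratio of the FPKM values was 4.51-fold and 4.15-fold. With a pseudocount of 0.1 the Day 11 difference was -1.82, past 2-fold.

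*Snhg6* (ENSMUSG00000098234, chr1:9941959-9944118, minus strand) was the only member with differences past 2-fold in opposite directions on different days. It was listed at 0 in flox/flox and had 9.91 FPKM in ΔIEC animals on Day 0. On Day 4 it had 11.9 in flox/flox and 1.77 in ΔIEC animals, 6.74-fold lower, and on Day 11 it had 13.5 and 2.53. No fold is given against a value listed at 0, which can be a failed estimate: *Fbl*, the gene of fibrillarin, the methyltransferase of box C/D snoRNA particles, was listed at 0 in all 6 groups. Of 2466 genes with between 2 and 10 FPKM in both Day 0 groups, 92 (3.73%) were listed at 0 in flox/flox and 47 (1.91%) in ΔIEC animals on Day 4.

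*Snhg1* and *Snhg3* had the other direction on the DSS days. *Snhg1* (ENSMUSG00000108414, chr19:8723475-8726443, plus strand) had 9.59 FPKM in flox/flox and 8.99 in ΔIEC animals on Day 0, 1.84 and 6.15 on Day 4 (3.33-fold higher in ΔIEC animals), and 1.84 and 6.80 on Day 11. Its log2 differences were -0.09, 1.33 and 1.45. *Snhg3* (ENSMUSG00000085241, chr4:132348014-132353686, minus strand) had 4.34 and 5.59 FPKM on Day 0 (log2 difference 0.30), and on Days 4 and 11 it was listed at 0 in flox/flox and had 1.88 in ΔIEC animals. Annotated *Snhg3* transcripts share exons with *Rcc1*, a protein-coding gene on the same strand, whose FPKM was 5.44 and 4.48 on Day 0, 0.821 and 4.88 on Day 4, and 0.853 and 4.93 on Day 11. Reads in the shared exons can count for either gene, and the levels of *Snhg3* are uncertain for this reason.

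*Snhg5* (ENSMUSG00000097195, chr9:88521050-88522929, minus strand) was the steadiest host. It had 4.22 FPKM in flox/flox and 5.67 in ΔIEC animals on Day 0, 4.77 and 4.34 on Day 4, and 4.74 and 4.52 on Day 11. The log2 differences, 0.35, -0.11 and -0.06, were within 2-fold on each day. Among hosts other than *Gas5*, levels in flox/flox animals on Day 4 ran from *Snhg8* and *Snhg6* through *Snhg5*, *Snhg12* and *Snhg1* to *Snhg3*, and in ΔIEC animals from *Snhg1* and *Snhg5* through *Snhg8*, *Snhg3* and *Snhg6* to *Snhg12*. With 1 pooled value per group, no spread between animals is known and no neighbours in these orders can be told apart.

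Over the 9 members, 0 were lower and 1 (*Snhg6*, listed at 0 in flox/flox) was higher past 2-fold in ΔIEC animals on Day 0. Among all genes that reached 1 FPKM in at least 1 genotype, 16.1% were lower and 13.5% higher past 2-fold on that day. On Day 4, 5 members (*Malat1*, *Gas5*, *Snhg6*, *Snhg8* and *Snhg12*) were lower, where 26.1% of all genes were, and 2 (*Snhg1* and *Snhg3*) were higher, where 25.6% were. On Day 11, 4 members were lower and 2 higher, against 25.7% and 26.1% of all genes. Division of each group by its summed FPKM, which shifts the median of all genes to 0.68 on Day 4, gave 3 lower and 3 higher members on that day. The counts are descriptions, since some members reached 1 FPKM in 1 genotype alone, which fixes their direction: *Snhg6* on Day 0 and *Snhg3* on Days 4 and 11 in ΔIEC animals, and *Snhg12* on Days 4 and 11 in flox/flox animals. Among short genes, 52.2% of those with median transcripts from 500 to 1000 nt and 67.0% of those under 500 nt were lower past 2-fold on Day 4. Of the 9 members, 7 have median transcripts under 1000 nt. *Malat1* is 1 of these, but its longest transcript measures 6983 nt. Of genes with median transcripts from 4000 to 8000 nt, 12.8% were lower past 2-fold on Day 4. All 9 members passed the minimum of 1 FPKM on each day.

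The hosts differed in both directions. From Day 0 to Day 11, their median log2 differences were -0.01, -1.33 and -0.94, against 0.06, 0.06 and 0.08 over all genes. On Day 4 the hosts ran from -2.30 for *Snhg8* to 1.33 for *Snhg1* among those above 0 in both genotypes, with 4 lower and 2 higher past 2-fold over all 7, beside the 26.1% and 25.6% of all genes and the larger lower shares of short genes given above. The median of Day 4 was -0.72 without *Gas5*, without *Snhg6* or without *Snhg8*, a move of more than 1.5-fold on the linear scale. The host medians of Days 4 and 11 were -0.55 and -0.31 with a pseudocount of 5, and -1.73 and -1.69 with a pseudocount of 0.1. The 2 nuclear RNAs lay on either side of the host median but not of all hosts. On Day 4 *Malat1* lay at -1.49 from the host median on the log2 scale, with a higher difference in 7 of 7 hosts, and *Neat1* lay at 1.78 from it, with a lower difference in 5 of 7 and *Snhg1* and *Snhg3* above it. On Day 11 the distances were -1.82 and 1.34, and on Day 0 -0.76 and 0.12, where *Gas5* was below *Malat1*. The level of *Malat1* was 14.3 times the summed hosts in flox/flox and 13.6 times in ΔIEC animals on Day 0. This ratio was 24.6 and 10.4 on Day 4 and 20.9 and 8.68 on Day 11.

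**Figure D2:**
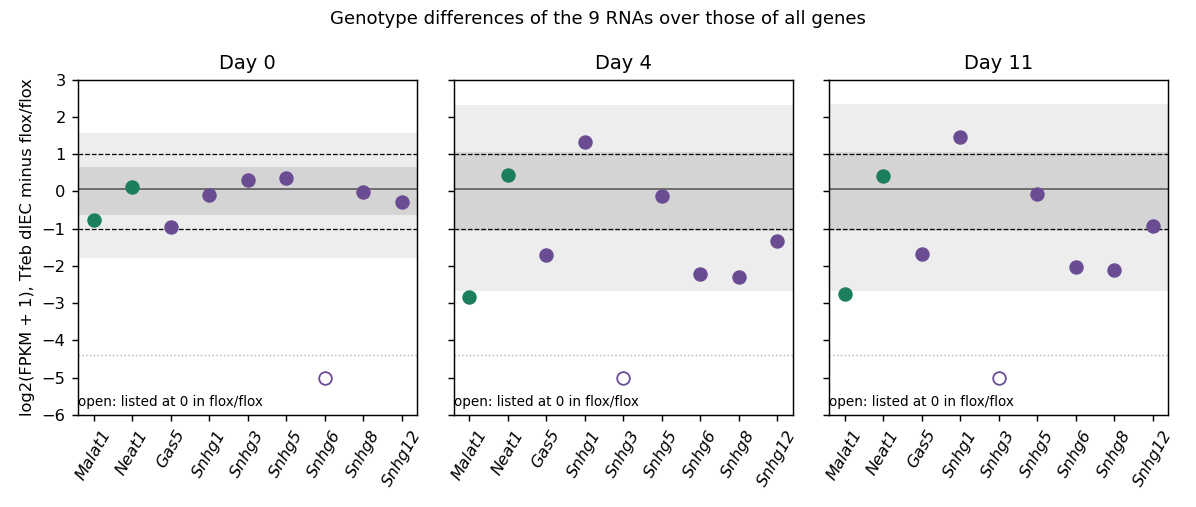
Difference in log2(FPKM + 1), *Tfeb* ΔIEC minus *Tfeb* flox/flox (vertical axis), of *Malat1* and *Neat1* (green) and the 7 snoRNA hosts (purple) on each day. The grey bands hold the central 50% and 90% of all genes of at least 1 FPKM, the grey line is their median, dashed lines mark 2-fold, and open points under the dotted line are listed at 0 in flox/flox animals. On Day 4 *Malat1* lies at -2.82, below both bands, *Neat1* at 0.45, and *Gas5*, *Snhg6*, *Snhg8* and *Snhg12* between -2.30 and -1.33.

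Transcript length moved with these differences, already on Day 0, when the median log2 difference over all genes was -1.13 for median transcripts under 500 nt, -0.57 from 500 to 1000 nt and 0.29 from 2000 to 4000 nt. On Day 4 the median log2 difference over all genes was -1.85 for median transcripts under 500 nt, -1.06 from 500 to 1000 nt, 0.02 from 1000 to 2000 nt and 0.63 from 2000 to 4000 nt. The median transcripts of the hosts measure between 488 nt (*Snhg8*) and 1011 nt (*Snhg12*), that of *Malat1* 606 nt and that of *Neat1* 2017 nt. After subtraction of a running median over length, the host median was -0.18 on Day 4, and *Gas5* was at -0.18, *Snhg6* at -0.96, *Snhg8* at -0.74 and *Snhg12* at -0.73. *Malat1* was then at -1.53, the only member lower past 2-fold under this subtraction, and *Neat1* was at -0.07. *Snhg1*, which is nearly as short as *Gas5*, was at 2.73 above genes of its length. The subtraction depends on the transcripts assumed. With the longest transcript of every gene, *Malat1* was at -2.99 on Day 4, and *Snhg6* at -1.16 and *Snhg12* at -1.17 were also past 2-fold. On Day 0, *Malat1* was at 0.0853 with the median and at -1.19, past 2-fold, with the longest transcript.

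**Figure D3:**
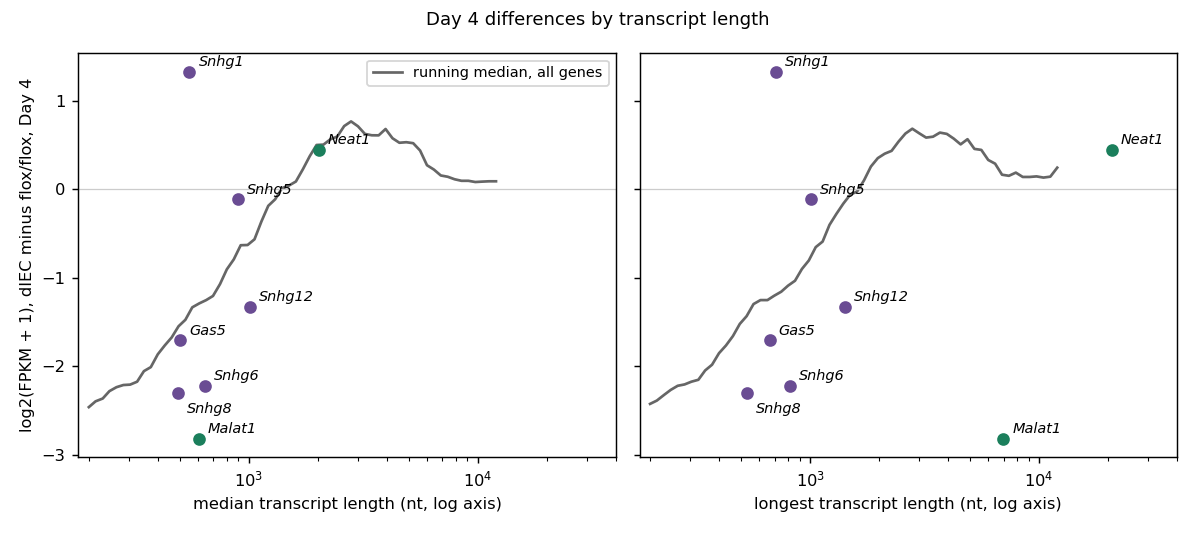
Day 4 difference in log2(FPKM + 1), *Tfeb* ΔIEC minus *Tfeb* flox/flox (vertical axis), against transcript length in nt (horizontal log axis) of the 8 members above 0 in both genotypes, green for *Malat1* and *Neat1* and purple for hosts. The left panel uses the median and the right panel the longest annotated transcript, and the grey line is the running median over all genes. *Gas5* (502 nt in the left panel) lies 0.18 under the line, *Snhg1* (550 nt) 2.73 above it, and *Malat1* lies below it in both panels.

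The introns of the 7 hosts hold 29 genes annotated as snoRNAs, all on the strand of the host and from 60 to 205 nt long. *Gas5* has 10, *Snhg1* 8, *Snhg12* 5, *Snhg3* and *Snhg5* 2 each, and *Snhg6* and *Snhg8* 1 each. Snord80 in *Gas5* and Snora16a in *Snhg12* are each annotated as 2 genes at nearly the same position, and both entries are counted. Of the 29, 5 had a value above 0 in any group, all of them in flox/flox animals on Days 4 and 11. The other groups listed all 29 at 0, and among all 1507 annotated snoRNAs, 11 were above 0 in flox/flox and 2 in ΔIEC animals on Day 4. The 3 highest were box C/D snoRNAs, the class that directs ribose methylation and is defined by a C box near the 5′ end and a D box near the 3′ end. They are shown because their hosts *Gas5* and *Snhg6* were among the members lower in ΔIEC animals, and the sequences (GENCODE M21, mm10, 5′ to 3′) have the C box TGATGA and the D box CTGA in capitals.
Gm22357 (in *Gas5*, chr1:161036057-161036139, plus strand): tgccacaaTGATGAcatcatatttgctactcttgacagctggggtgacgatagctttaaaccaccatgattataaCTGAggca
Gm23212 (in *Gas5*, chr1:161036682-161036741, plus strand): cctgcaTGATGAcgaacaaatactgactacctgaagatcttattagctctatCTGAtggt
Snord87 (in *Snhg6*, chr1:9942463-9942549, minus strand): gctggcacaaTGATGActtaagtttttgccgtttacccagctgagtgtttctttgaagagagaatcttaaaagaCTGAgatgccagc

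In flox/flox animals, Gm22357 had 2861 FPKM on Day 4 and 2948 on Day 11, Gm23212 3489 and 3812, and Snord87 805 and 939. All 3 were listed at 0 in the other 4 groups. Their lengths, 83, 60 and 87 nt, lie far below those of most transcripts, so that a few fragments can give a high FPKM. Cuffdiff marked Gm22357 and Gm23212 as having low data on all 3 days. Both also overlap exons of some annotated *Gas5* transcripts, 4 of 25 for Gm22357 and 3 of 25 for Gm23212. Reads there can come from the host RNA, and how far they do was not tested. The 2 remaining ones carry an ACA near the 3′ end, the mark of the H/ACA class that directs pseudouridylation. Snora73b in *Snhg3* had 24.98 and 23.9 FPKM in flox/flox animals on Days 4 and 11, while *Snhg3* was itself listed at 0 there. Snora61 in *Snhg12*, also marked as low data, had 0.00987 and 421 in those groups. It overlaps exons of 5 of the 10 annotated *Snhg12* transcripts. Both sequence marks of box C/D snoRNAs, the C box within the first 25 bases and the D box within the last 25, were found in 18 of the 29 snoRNAs, and 6 of the others had an ACA in the last 8 bases. All 8 snoRNAs of *Snhg1* and both of *Snhg5* were listed at 0 in all 6 groups, as was the 1 of *Snhg8*.

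**Figure D4:**
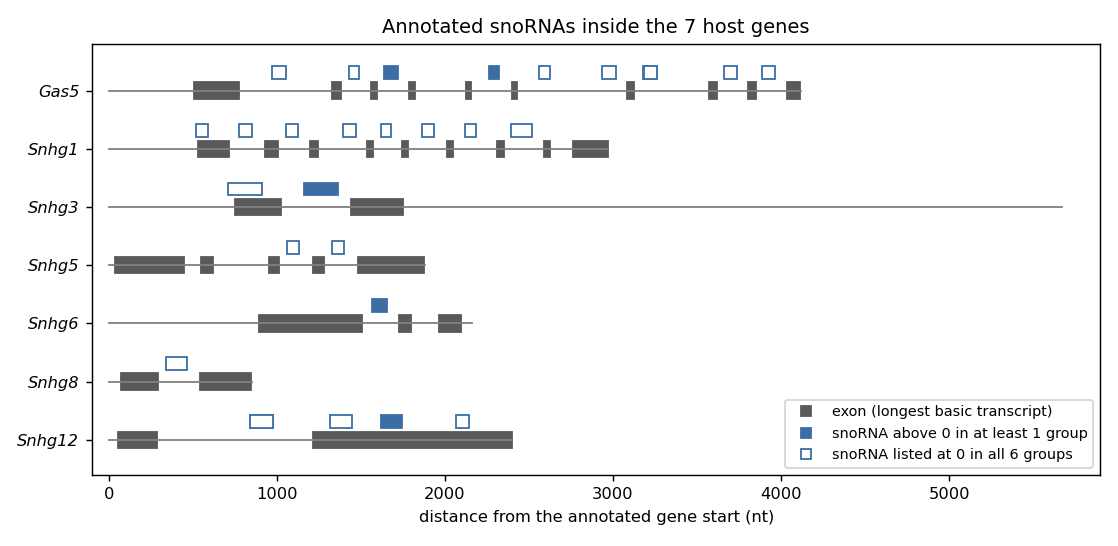
The 7 host genes drawn to scale from their annotated start (horizontal axis, nt), with the exons of the longest basic transcript as grey boxes and annotated snoRNAs as blue boxes above, filled where the snoRNA had an FPKM above 0 in at least 1 group. Filled boxes are 5 of 29: 2 in *Gas5* and 1 each in *Snhg3*, *Snhg6* and *Snhg12*; snoRNAs drawn over an exon lie in an intron of another transcript.

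Start regions were read because 4 hosts were lower past 2-fold on Day 4, so that what they share there is a description of genes chosen for that difference. RefSeq windows (GRCm38.p6, 250 bases before to 50 after the start) were used for 7 members, *Malat1* and 6 hosts, and *Gas5* has 2. *Neat1* and *Snhg6*, a host that was also lower past 2-fold on Day 4, were not analysed here for start regions. The motifs searched on the transcribed strand were TATAAA or TATATA in the 50 bases before the start, which 3.67% of 32851 windows hold, and a C followed by at least 4 more C or T that begins within 5 bases of the start, which 18.3% hold. CACGTG, the core of the sequence that the family of TFEB binds, is the same on both strands, and 7.15% of windows hold it. The TATA motif was found in *Gas5* (second start), *Snhg5*, *Snhg8* and *Snhg12*, the pyrimidine run in *Gas5* (second start), *Snhg3*, *Snhg8* and *Snhg12*, and CACGTG in none of the 8 windows. The TATA motif and the run occur together in 0.721% of windows. *Snhg3*, with the run alone, was listed at 0 in flox/flox animals and had 1.88 FPKM in ΔIEC animals on Day 4. *Gas5*, *Snhg8* and *Snhg12*, which hold both, are shown with *Snhg5*, where the TATA motif alone was counted. In *Snhg5* a C followed by 4 T begins more than 5 bases after the annotated start, outside the search. The sequences run from 45 bases before to 25 after the start, with the motifs in capitals.
Gas5 (chr1:161035121-161035190, plus strand): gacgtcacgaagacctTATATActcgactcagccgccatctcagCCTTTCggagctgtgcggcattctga
Snhg8 (chr3:123508312-123508381, minus strand): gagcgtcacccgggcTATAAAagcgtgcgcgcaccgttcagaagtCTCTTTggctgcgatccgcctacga
Snhg12 (chr4:132308633-132308702, plus strand): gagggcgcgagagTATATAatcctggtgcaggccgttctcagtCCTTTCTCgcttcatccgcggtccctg
Snhg5 (chr9:88522873-88522942, minus strand): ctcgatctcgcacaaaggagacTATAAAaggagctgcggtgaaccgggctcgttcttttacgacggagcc

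Genes that work with these RNAs were read by lists. Some listed genes reached 1 FPKM in 1 genotype alone, which fixes their direction, so that counts over such lists are descriptions. Of the other snoRNA host RNAs, 6 reached 1 FPKM on Day 4, 3 of them in flox/flox animals alone, and 4 were lower and 0 higher past 2-fold, where 26.1% and 25.6% of all genes were. *Snhg9* had 41.9 FPKM in flox/flox animals on Day 4 and was listed at 0 in ΔIEC animals and in both genotypes on Day 0. Its median transcript measures 183 nt, a length at which a few fragments can give a high FPKM. *Snhg18* had 14.6 and 1.26 FPKM on Day 4. *Epb41l4aos* had 15.6 in flox/flox and 7.11 in ΔIEC animals on Day 0 but 7.95 and 20.5 on Day 11. It was the 1 host of this list higher past 2-fold on Day 11, when 4 of the 6 were lower and 4 reached 1 FPKM in flox/flox animals alone.

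The 80 ribosomal protein genes, whose mRNAs are short and known for a pyrimidine start, had median log2 differences of -1.003, -2.25 and -2.15 in day order. Of them, 40, 70 and 70 were lower past 2-fold, where 16.1%, 26.1% and 25.7% of all genes were, and 1, 0 and 0 were higher, where 13.5%, 25.6% and 26.1% were. On Day 4, 52.2% of all genes from 500 to 1000 nt and 67.0% of those under 500 nt were lower. *Rpl36* had 3514 FPKM in flox/flox and 214 in ΔIEC animals on Day 4, and *Rps29* had 1797 and 109.9. *Rpl24*, the 1 gene higher on Day 0, had 0.0187 in flox/flox and 10.7 in ΔIEC animals on that day and 105 and 5.23 on Day 11, opposite directions as for *Snhg6*. Among 10 genes of snoRNA particle proteins and their assembly on Day 4, the median was -0.50, with 4 lower and 0 higher past 2-fold against those 26.1% and 25.6%, and 2 reached 1 FPKM in flox/flox and 1 in ΔIEC animals alone. *Nop10*, a core protein of H/ACA particles, had 59.7 FPKM in flox/flox and 8.54 in ΔIEC animals, and *Nhp2*, another, had 62.8 and 23.2. The 7 factors of nonsense-mediated decay had a median of -0.23 on Day 4, with 0 lower and 0 higher past 2-fold against the same shares, and 2 reached 1 FPKM in flox/flox and 1 in ΔIEC animals alone. The 2 of highest FPKM, *Smg9* and *Upf3b*, had 3.24 and 3.45 in flox/flox and 3.54 and 1.46 in ΔIEC animals.

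The bodies that *Malat1* and *Neat1* mark were represented by lists of their proteins, and the Day 4 counts are read against 26.1% of all genes lower and 25.6% higher past 2-fold. Of 16 nuclear speckle genes on Day 4, 6 were lower and 5 higher past 2-fold, with a median of 0.04, and 2 reached 1 FPKM in ΔIEC animals alone. *Srrm2*, a large protein at the core of speckles, had 56.3 FPKM in flox/flox and 7.46 in ΔIEC animals, and *Acin1* had 19.0 and 3.08. *Srsf3*, a splicing factor, had 3.94 and 33.4, and *Clk1*, a kinase of such factors, had 2.81 and 10.2. Of 9 paraspeckle genes, 1 was lower and 3 were higher past 2-fold, with a median of 0.53, and 1 reached 1 FPKM in flox/flox and 2 in ΔIEC animals alone. *Hnrnpk* had 14.2 FPKM in flox/flox and 116 in ΔIEC animals, and *Nono*, a core paraspeckle protein, had 2.18 and 6.87. On Day 0, *Hnrnpk* had 95.5 and 126 and *Nono* 7.78 and 10.7. *Acin1* had 2.71 and 8.06 on that day, past 2-fold in the direction opposite to that of Day 4. Of other nuclear long RNAs, only 3 reached 1 FPKM on Day 4, 2 of them in ΔIEC animals alone, and no count of directions is given. On Day 0, 5 reached 1 FPKM, with 1 lower and 3 higher past 2-fold beside 16.1% and 13.5% of all genes, and 2 of the 5 reached it in 1 genotype alone. *Tug1* had 1.28 FPKM in flox/flox and 5.70 in ΔIEC animals on Day 0, and *Xist*, transcribed from the inactive X chromosome of female cells, had 1.38 and 8.57.

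**Figure D5:**
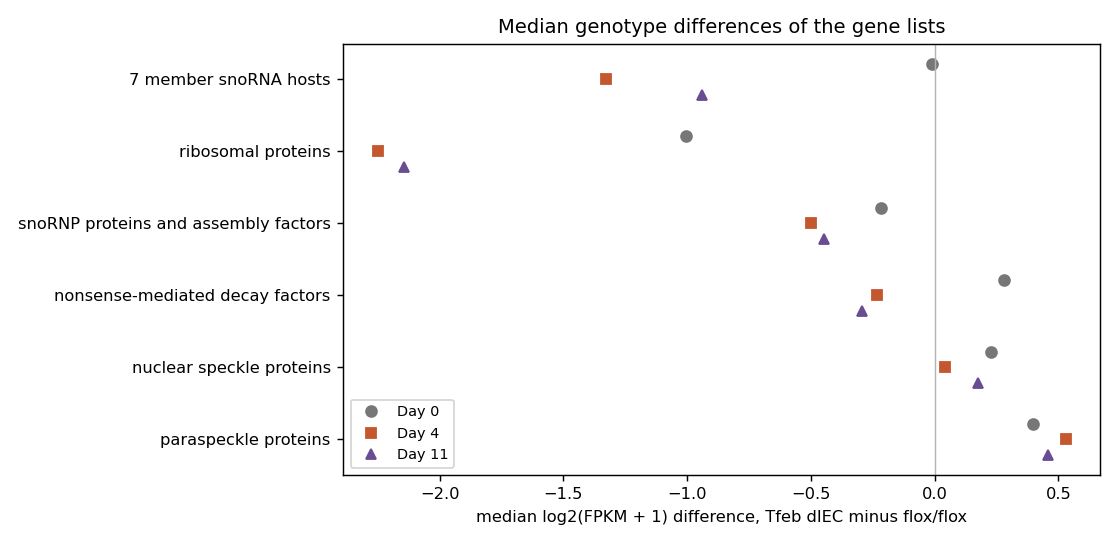
Median difference in log2(FPKM + 1), *Tfeb* ΔIEC minus *Tfeb* flox/flox (horizontal axis), over the 7 hosts and over the genes of 5 lists that reached 1 FPKM (rows), on Day 0 (circles), Day 4 (squares) and Day 11 (triangles). On Day 4 ribosomal proteins lie at -2.25, the 7 hosts at -1.33 and paraspeckle proteins at 0.53.

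Genes whose profile over the 6 values was nearest to that of a member were found among 5356 genes of at least 1 FPKM in every group, by the root mean square difference of log2(FPKM + 1) after centring. This is a description: the days were scaled separately, and Days 4 and 11 share identical values. Nearest to *Malat1* were *Pdap1* (0.20), *Cenpv* (0.21) and *Fermt1* (0.21). *Fermt1*, the gene of an integrin regulator of epithelial cells, had 130.8 FPKM in flox/flox and 15.4 in ΔIEC animals on Day 4. Nearest to *Gas5* were *Cenpa* (0.0652), *H2afv* (0.0979) and *Vgll4* (0.121), of which the first 2 encode histone variants. Nearest to *Neat1* were *Hmgn2* (0.0588), *Npm1* (0.0712) and *Gm4204* (0.0720). *Npm1*, the gene of an abundant nucleolar protein, had 31.4 and 35.6 FPKM on Day 0 and 9.88 and 14.4 on Day 4.

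Genes that overlap a member bear on its reads, because libraries of this kind do not keep the strand. Gm37376, on the strand opposite to *Malat1* and inside it, was listed at 0 in both genotypes on Day 4 and had 61.5 FPKM in flox/flox and 21.1 in ΔIEC animals on Day 11, far under *Malat1* in each group. Gm28006, a small RNA annotated inside *Neat1*, was marked as low data by Cuffdiff, had 228 FPKM in flox/flox animals on Day 0 and was listed at 0 in ΔIEC animals on that day. Reads of *Malat1* and Gm37376 cannot be told apart where they overlap, nor those of *Neat1* and Gm28006.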

How the data were processed

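Members and lists were chosen with earlier results of these data known. Per the labels and the study's methods, full-length cDNA was made with a SmartSeq2 variant, sequencing was paired-end on a MiSeq, and the authors aligned to mm10 using TopHat2 (2.0.14 in the submitters' processing notes) and Bowtie. Cuffdiff (2.1.1) gave the deposited FPKM values, 1 per genotype and day over 2 animals; the annotation release is not given in the sources used here. The tables' fold change, test statistic, p-value and q-value columns hold the authors' comparison and were not used. Depth is unknown.

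Groups came from the genotype and day labels. Differences were log2(FPKM + 1), ΔIEC minus flox/flox, with no test, and the background was every gene that reached 1 FPKM in at least 1 genotype. Alternatives were pseudocounts of 0.1 and 5, scaling, centring, a running median by transcript length (GENCODE M21, the same assembly; 47218 of 47632 genes matched), 4-fold, and hosts left out. Named list genes were those past 2-fold with at least 5 FPKM in either genotype, at most 4 per list and day with the largest difference, otherwise the 2 of highest FPKM; *Fbl*, *Rcc1* and the markers listed at 0 were chosen after their values were seen. Sequences were read from GENCODE M21 and RefSeq. Python 3.11.15, numpy 2.4.6, pandas 2.3.3 and matplotlib 3.10.9 were used, and the calculation was tested on simulated data.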

Additional observations from a re-analysis of the deposited data

Results flagged for a closer look

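*Snhg6* stood out because its genotype differences were past 2-fold in opposite directions on different days. It was listed at 0 in flox/flox and had 9.91 FPKM in ΔIEC animals on Day 0, against 11.9 and 1.77 on Day 4 and 13.5 and 2.53 on Day 11. The Day 0 direction rests on a value listed at 0, which can be a failed estimate, and *Snhg6* reached 1 FPKM on that day in ΔIEC animals alone. Of 8263 genes that reached 1 FPKM on both Day 0 and Day 4, 148 (1.79%) were likewise higher past 2-fold on Day 0 and lower on Day 4, and 110 (1.33%) had the reverse order. The difference between days was not tested, since each group has 1 pooled value. Snord87, in its intron, was listed at 0 in both genotypes on Day 0.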

How the results depend on the processing

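No paired analysis was possible because each genotype has 1 pooled value per day, and no animal could be left out for the same reason. Over the differences of *Malat1* and *Neat1*, the host medians and the member counts, 105 values under other settings stayed within 1.5-fold of those reported, 33 moved further and 0 changed the direction of a called value. Of the shares of all genes past 2-fold, 8 stayed and 4 moved. With a running median over transcript length subtracted, *Malat1* was at 0.0853 (Day 0), -1.53 (Day 4) and -1.50 (Day 11), the host median was 0.78, -0.18 and -0.16, 2 members were higher past 2-fold on Day 0, and 1 was lower on each of Days 4 and 11. With the longest transcript, chosen after seeing the data, the host median was 0.78 on Day 0 and -0.48 on Day 4, and 1 (*Malat1*, at -1.19), 3 and 1 members were lower on Days 0, 4 and 11, with 2 higher on Day 0. Division by the summed FPKM, which shifts the median of all genes to 0.68 on Day 4 and 0.70 on Day 11, put *Malat1* at -1.99 and -1.93 and *Neat1* at 1.03 on Day 4, past 2-fold, with 3 members lower and 3 higher on Day 4. Division by the upper quartile, and centring on the median of the day, each gave 1 lower member on Day 0. A pseudocount of 5 gave a host median of -0.55 on Day 4 and -0.31 on Day 11, with 0 higher members on both days, and a pseudocount of 0.1 gave -1.69 on Day 11. At 4-fold, 3 members were lower on Day 4 and 0 were higher on Days 4 and 11. Over hosts of at least 5 FPKM in either genotype the median was -1.97 on Day 4 and -1.86 on Day 11. On both days *Snhg6* and *Snhg8* passed in flox/flox animals alone and *Snhg1* in ΔIEC animals alone, so the filter fixed their direction. With each host left out in turn, the median over the others lay between -1.52 and -0.72 on Day 4 (-0.72 without *Gas5*, *Snhg6* or *Snhg8*). It lay between -1.30 and -0.50 on Day 11 and between -0.05 and 0.15 on Day 0. Without a filter on low values, the shares of all genes past 2-fold on Day 4 were 17.1% lower and 16.8% higher. The causes of these moves were not tested.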
